A study of Mus musculus with 9 samples.

Results

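Of the genes whose mean was at least 8-fold higher in c-KIT+ marrow of mice with the leukaemia fusion CBFB-MYH11 than in wild type, 16 kept a group mean near that level when Chd7 was floxed as well. They were chosen from 43629 genes by group means of the normalised values: a KI mean of at least 100, a ratio of (KI + 1) to (WT + 1) of at least 8, and a ratio of the KI_Chd7del mean to the KI mean between 0.7 and 1.5. All 3 contrasts of these genes therefore entered the choice, and their values are given as a description, without a test. The genes are Slc7a8, Selp, Gna14, Tmem178, Gm4759, Kif26b, Tctex1d1, Kcne3, Ncmap, Cited1, Nudt11, Myh11, C030034L19Rik, Car8, Adam11 and Lrrc2.

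RNA-seq had been done on 3 groups of pIpC-treated C57BL/6 mice, with 3 libraries each. KI_Chd7del carried 2 floxed Chd7 alleles (Chd7f/f), Mx1-Cre and Cbfb+/56M. KI carried Mx1-Cre and Cbfb+/56M with no floxed Chd7 named in its label, and WT was labelled wild type with no Cre named. Marrow cells were enriched for c-KIT (CD117), the stem cell factor receptor, by positive selection with a kit. Cbfb+/56M is a knock-in allele of the fusion. The Mx1 promoter responds to interferon, which pIpC induces, so Cre is expressed in blood cells and also in other interferon-responsive tissues. The fusion and Mx1-Cre cannot be told apart in the comparison of KI with WT. No label states that each library is a different animal, and a p-value here weighs a difference against the spread between libraries, which may be technical.

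Core binding factor is a dimer of a DNA-binding RUNX protein and CBFB, and it directs genes of blood cell maturation. The fusion joins CBFB to the rod of smooth muscle myosin heavy chain, and the product holds RUNX1 and disturbs its target genes. CHD7 is an ATP-driven chromatin remodeller that moves nucleosomes, mainly at enhancers and promoters.

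Column totals of normalised values were 37.5 to 38.1 M in KI_Chd7del, 37.7 to 39.0 M in KI and 43.2 to 46.2 M in WT. Chd7 had 1862, 1794 and 1921 in KI_Chd7del, 1979, 2934 and 2009 in KI, and 3471, 3745 and 3982 in WT, and a value for the whole gene does not show the floxed exon. Kit, whose protein was used for the selection, was present throughout, at 6131 to 8508 in KI_Chd7del, 3226 to 3868 in KI and 7354 to 7797 in WT. Late neutrophil markers were nevertheless abundant, with summed values of 1332261 to 1719931 in KI_Chd7del, 159540 to 736573 in KI and 4427601 to 5529805 in WT. In bulk samples, fewer cells of a type and less RNA per cell cannot be told apart. KI_Chd7del library 1 stood apart from its group, with a summed eosinophil marker value of 16821 against 59400 and 57349 in libraries 2 and 3, and a summed progenitor marker value of 239626 against 326275 and 321143. The KI libraries also differed among themselves, with summed late neutrophil values of 370861, 736573 and 159540 in libraries 1, 2 and 3.

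These 16 genes made up 4.68% of the 342 genes with a KI mean of at least 100 and a fold of at least 8. The ratio of the KI_Chd7del mean to the KI mean was below 0.7 in 325 of the 342, below 0.1 in 59 of these, and above 1.5 in 1. Of the 325, KI library 2 was the lowest of its group for 275 (84.6%) and KI_Chd7del library 3 the lowest of its group for 224 (68.9%). Over all 11388 genes with a KI mean of at least 100, these libraries were lowest for 43.4% and 29.0%. For the 16 genes the shares were 50% and 43.8%. The fold and ratio that sorted these genes used the same values, so nothing is read from the differences between these shares. The median ratio of the KI_Chd7del mean to the KI mean over the 342 was 0.254. Just below the lower bound lay Cst6 (0.697), Arhgef10 (0.687) and Slc30a2 (0.669), and just inside lay Selp (0.732), C030034L19Rik (0.775) and Adam11 (0.776). Ncmap (1.37), Kif26b (1.37) and Tmem178 (1.32) lay nearest the upper bound from inside. The gene above it was Grhl2, a grainyhead family transcription factor of epithelia, with 951, 247 and 296 in KI_Chd7del, 270, 217 and 209 in KI, and 1, 0 and 1 in WT. By fold, Gm4759 (8.19), Adam11 (8.24) and Selp (8.81) were just inside, while Gm20658 (7.98), BC016579 (7.58) and Gfra2 (7.57) were just outside. By KI mean, Lrrc2 (108.7), Adam11 (133.7) and Car8 (152.3) were just inside, and Pgf (89.3), Trim30c (88.7) and Aif1l (87.0) just outside.

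**Figure D1:**
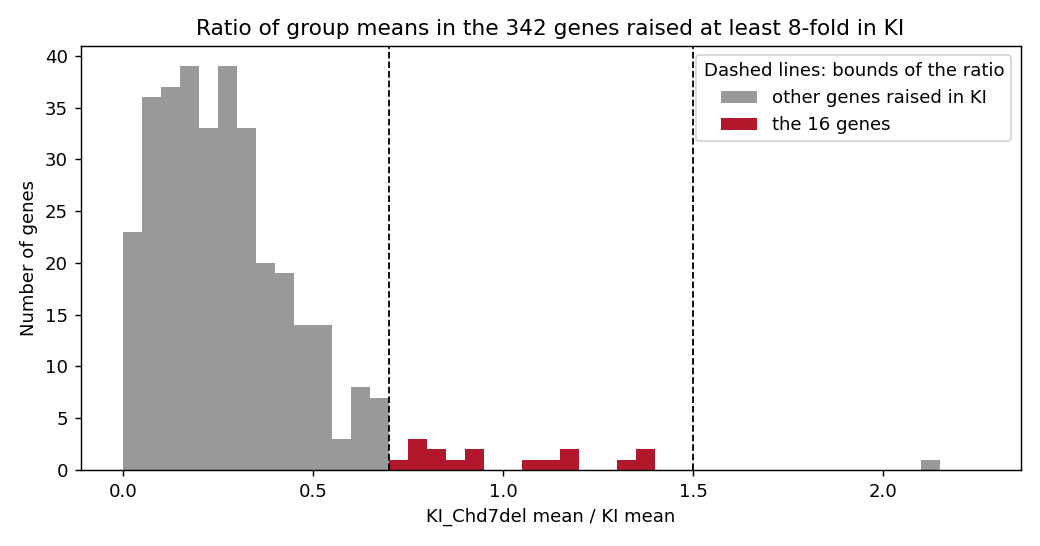
Histogram of the KI_Chd7del mean divided by the KI mean (horizontal axis, no unit) for the 342 genes raised at least 8-fold in KI, with the number of genes on the vertical axis. The 16 genes lie between the dashed lines at 0.7 and 1.5, to the right of the 325 genes below 0.7.

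Promoters of some of these genes are shown because a short motif, the E-box in the forms CACCTG and CAGCTG, was found in more of them than in promoters at large. RefSeq promoter sequences (GRCm38.p6, 250 bases before to 50 after a start site) matched 11 of the 16 genes, with 15 promoters in all. The others are Myh11, Car8, Adam11, Gm4759 and C030034L19Rik. The 250 bases before the start are printed 5′ to 3′ on the gene's strand, with matches of these forms on either strand in capitals. Other forms of the E-box were not searched and stay in small letters. They are chr1:164115014-164115263 for Selp, chr19:16435417-16435666 for Gna14, chr9:110951295-110951544 for Lrrc2 and chr17:80944382-80944631 for Tmem178, all on the plus strand.
Selp: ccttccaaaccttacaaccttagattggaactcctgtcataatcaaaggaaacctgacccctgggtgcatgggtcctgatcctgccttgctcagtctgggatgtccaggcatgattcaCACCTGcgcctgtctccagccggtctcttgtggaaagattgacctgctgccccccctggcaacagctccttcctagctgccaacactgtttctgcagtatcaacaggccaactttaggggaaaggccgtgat
Gna14: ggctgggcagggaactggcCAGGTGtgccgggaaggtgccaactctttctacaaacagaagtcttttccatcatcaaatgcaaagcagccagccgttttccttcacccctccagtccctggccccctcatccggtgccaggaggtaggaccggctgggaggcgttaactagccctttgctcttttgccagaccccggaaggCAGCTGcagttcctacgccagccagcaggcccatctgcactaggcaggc
Lrrc2: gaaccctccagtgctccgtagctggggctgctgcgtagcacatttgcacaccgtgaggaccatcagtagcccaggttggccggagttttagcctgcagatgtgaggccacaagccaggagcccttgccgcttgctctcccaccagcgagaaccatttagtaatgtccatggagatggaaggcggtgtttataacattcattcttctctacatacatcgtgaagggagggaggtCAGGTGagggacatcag
Tmem178: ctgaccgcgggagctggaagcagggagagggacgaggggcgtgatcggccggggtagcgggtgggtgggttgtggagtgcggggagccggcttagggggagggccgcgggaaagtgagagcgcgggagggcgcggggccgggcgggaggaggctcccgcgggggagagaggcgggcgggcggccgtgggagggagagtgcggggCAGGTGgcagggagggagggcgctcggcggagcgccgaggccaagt

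The first base of the marked match lay 132 bases before the start in Selp, 17 in Lrrc2 and 46 in Tmem178, and Gna14 had marked matches at 231 and 49. E-boxes are bound by helix-loop-helix and zinc finger factors. The letters searched were CACCTG and CAGCTG on both strands, and 9 of the 15 promoters (60%) held a match, in 7 of 11 genes. The printed promoters are among those with a match, and the promoters of Kif26b, Nudt11, Slc7a8 and Tctex1d1 held none. This motif was singled out from those searched after the shares were seen. Among all 32851 promoters of the table the share was 32.9%, and among the 325 promoters of genes with a ratio below 0.7 it was 31.7%. Matches of different motifs were counted separately and may overlap. The RUNX letters TGTGGT were in 0 of the 15 promoters, against 16.8% of all promoters. The GATA letters AGATAA and TGATAA were also in 0 of 15 (18.6% of all), as were the C/EBP letters TTGCNNAA (10.8% of all). The ETS letters GAGGAA were in 5 (33.3%, against 28.3% of all), TATAAA in 3 (20%, against 13.6%) and the AP-1 letters TGACTCA and TGAGTCA in 1 (6.67%, against 5.202%). The median GC content was 59.7% in the 15 promoters, 57% in promoters of genes with a ratio below 0.7 and 52.7% in all. With 15 promoters from 11 genes these shares are descriptions of few sequences.

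Values are given next for each gene in roles assigned after the names were known. A normalised value was taken, from the pattern of the values and not from a label, to be a read number divided by a library's size factor and rounded. In this list the fold is (KI mean + 1) over (WT mean + 1), and the ratio is the KI_Chd7del mean over the KI mean. All 16 passed the filter for testing, 10 or more in 3 or more libraries. Every KI_Chd7del and every KI library lay above every WT library for all 16, which the choice of the genes favours. Over all 15997 genes tested, 28.9% were higher without overlap in KI_Chd7del than in WT and 35.9% in KI than in WT, and 67.6% did not overlap between KI and WT in either direction.

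The transporter and channel genes included the most abundant member. Slc7a8 (ENSMUSG00000022180, chromosome 14, 54722209 to 54781946) encodes LAT2, the light chain of a carrier of neutral amino acids. It had 9405, 7669 and 5257 in KI_Chd7del, 10143, 4994 and 8654 in KI, and 628, 612 and 585 in WT. Libraries of KI_Chd7del and KI were interleaved, with a fold of 13.02 and a ratio of 0.939. Per kb of exon, its KI level of 1584 was the highest of the 16, and the lowest was 23.6 in Adam11. Kcne3 (ENSMUSG00000035165, chromosome 7, 100176502 to 100184869) encodes a small accessory subunit of potassium channels. Its values were 449, 185 and 248 in KI_Chd7del, 248, 244 and 244 in KI, and 30, 23 and 19 in WT. KI_Chd7del library 1 was above all KI libraries and library 2 below them, with a fold of 9.85 and a ratio of 1.20.

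The signalling genes act on G proteins, calcium and inositol phosphates. Gna14 (ENSMUSG00000024697, chromosome 19, 16435762 to 16610820) encodes a G protein alpha subunit of the Gq class, which couples receptors to phospholipase C beta. It had 1885, 1408 and 1134 in KI_Chd7del, 1982, 1385 and 1847 in KI, and 191, 213 and 162 in WT. The ranges of KI_Chd7del and KI overlapped, with a fold of 9.17 and a ratio of 0.849. Tmem178 (ENSMUSG00000024245, chromosome 17, 80944632 to 81001816) encodes a membrane protein of the endoplasmic reticulum that in mouse limits calcium signalling in osteoclast precursors. Its values were 1071, 850 and 689 in KI_Chd7del, 625, 660 and 686 in KI, and 58, 35 and 28 in WT. This was the gene for which every KI_Chd7del library lay above every KI library, with a fold of 15.9 and a ratio of 1.32, although library 3 (689) and the highest KI library (686) nearly met. Car8 (ENSMUSG00000041261, chromosome 4, 8143362 to 8239041) encodes a carbonic anhydrase relative that lacks the enzyme activity and binds the inositol trisphosphate receptor ITPR1. It had 165, 122 and 87 in KI_Chd7del, 195, 96 and 166 in KI, and 3, 3 and 2 in WT. The ranges overlapped, with a fold of 41.8 and a ratio of 0.818. Nudt11 (ENSMUSG00000073295, chromosome X, 6047453 to 6055110) encodes a phosphatase of inositol pyrophosphates. Its values were 429, 141 and 111 in KI_Chd7del, 225, 155 and 216 in KI, and 4, 1 and 1 in WT. KI_Chd7del libraries 2 and 3 lay below all KI libraries and library 1 above them, so the ratio of 1.14 became 0.634 over libraries 2 and 3. Nudt11 shared 16.6% of its 50-base stretches of transcript with Nudt10, which was at 0 to 3 in every library.

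Adhesion was represented by a selectin and an inactive protease relative. Selp (ENSMUSG00000026580, chromosome 1, 164115264 to 164150026) encodes P-selectin, which platelets and endothelium use to catch leukocytes that carry its ligand Selplg. It had 1336, 1597 and 1159 in KI_Chd7del, 1403, 1867 and 2321 in KI, and 246, 170 and 216 in WT. The groups overlapped at 1403 to 1597, with a fold of 8.81 and a ratio of 0.732. The summed value of the 11 megakaryocyte markers was 6881 to 9054 in KI_Chd7del, 6692 to 9469 in KI and 5817 to 7076 in WT, and Pf4, the platelet chemokine, averaged 639.7 ± 240 in KI_Chd7del, 114 ± 27.4 in KI and 755.7 ± 212 in WT (SD, n = 3 each). The sums hid the single markers. Of the 10 tested, 2 were higher and 6 lower in KI against WT (80%, against 58.9% of all genes, median log2 -0.75). In KI_Chd7del against KI, 7 were higher and 1 lower (80%, against 40.4%, median 1.55). The sum of the 10 endothelial markers was 5193 to 5611 in KI_Chd7del, 3942 to 4204 in KI and 2224 to 2762 in WT, with Cldn5 and Sox17 below 10 in every library. The single endothelial markers did not all follow this sum. Of the 8 tested, 2 were higher and 1 lower in KI against WT (37.5%, against 58.9% of all genes, median log2 0.17). Against KI, KI_Chd7del had 3 higher and 1 lower (50%, against 40.4%, median 0.11). The part of megakaryocyte and endothelial cells in the values of Selp was not tested. Adam11 (ENSMUSG00000020926, chromosome 11, 102761439 to 102780262) encodes a membrane protein of the ADAM family without protease activity, known from neurons. Its values were 112, 90 and 109 in KI_Chd7del, 119, 136 and 146 in KI, and 23, 17 and 6 in WT. This was the gene for which every KI_Chd7del library lay below every KI library, with a fold of 8.24 and a ratio of 0.776.

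The cytoskeletal genes were a myosin, a kinesin and a dynein light chain relative. Myh11 (ENSMUSG00000018830, chromosome 16, 14194535 to 14291372) encodes smooth muscle myosin heavy chain and gives the fusion its tail, so reads of the fusion transcript may be counted on it. It had 187, 164 and 176 in KI_Chd7del, 219, 194 and 176 in KI, and 8, 9 and 5 in WT. The KI_Chd7del range of 164 to 187 met the KI range at 176, and the fold was 23.7 with a ratio of 0.895. The sum of the 10 smooth muscle markers was 1576 to 2112 in KI_Chd7del, 1360 to 1633 in KI and 2142 to 2458 in WT, and Des, Lmod1 and Actg2 stayed below 10 in every library. Among the other markers, Cnn1, a calponin, averaged 116.3 ± 54.8 in KI_Chd7del, 72 ± 9.54 in KI and 5.33 ± 4.16 in WT, whereas Acta2, smooth muscle actin, averaged 91 ± 13 in KI_Chd7del, 119.3 ± 10.1 in KI and 300.3 ± 108 in WT (SD, n = 3 each). Kif26b (ENSMUSG00000026494, chromosome 1, 178529125 to 178939200) encodes an atypical kinesin needed for kidney development in mouse. Its values were 658, 321 and 572 in KI_Chd7del, 418, 397 and 321 in KI, and 38, 31 and 13 in WT. KI_Chd7del libraries 1 and 3 were above all KI libraries and library 2 matched the lowest of them, with a fold of 13.4 and a ratio of 1.37. Tctex1d1 (ENSMUSG00000028523, chromosome 4, 102978606 to 103005594) encodes a protein with the fold of a Tctex-type dynein light chain. It had 165, 248 and 281 in KI_Chd7del, 256, 319 and 303 in KI, and 39, 21 and 29 in WT. KI_Chd7del library 1 was the lowest of the 6 fusion libraries, with a fold of 9.58 and a ratio of 0.790. Of its exon bases, 49.8% overlapped the antisense gene BB031773, which had at most 11 in any library.

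Cited1 (ENSMUSG00000051159, chromosome X, 102247381 to 102252181) encodes a transcriptional coregulator that binds CBP and p300 and has no DNA-binding domain. It had 433, 145 and 164 in KI_Chd7del, 268, 164 and 203 in KI, and 1, 2 and 2 in WT. KI_Chd7del library 1 was above all KI libraries, library 2 was below them and library 3 equalled the lowest, so the ratio of 1.17 became 0.730 over libraries 2 and 3. With a WT mean of 1.67, its fold of 79.8 was the largest of the 16, followed by Nudt11 at 66.6 and Ncmap at 42.6, and for values this low the fold depends on the added 1.

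Ncmap (ENSMUSG00000043924, chromosome 4, 135369576 to 135398227) encodes a membrane protein of non-compact myelin in peripheral nerve. Its values were 973, 9 and 10 in KI_Chd7del, 257, 166 and 299 in KI, and 5, 4 and 5 in WT. The KI_Chd7del mean was held by library 1, and the other 2 libraries, at 9 and 10, were close to WT. Over these 2 libraries the ratio was 0.0395, against 1.37 over the 3. Nerve and glia markers summed to 89 to 119 in KI_Chd7del, 181 to 230 in KI and 163 to 194 in WT, and 5 of the 8 were below 10 in every library, with Snap25 at 0. Rcan3, a calcineurin regulator 14.1 kb away, had 1794, 851 and 756 in KI_Chd7del, 1683, 1445 and 1728 in KI, and 721, 600 and 584 in WT, also with library 1 well above the other KI_Chd7del libraries. Lrrc2 (ENSMUSG00000032495, chromosome 9, 110951545 to 110984066) encodes a protein of leucine-rich repeats. It had 113, 103 and 85 in KI_Chd7del, 117, 73 and 136 in KI, and 11, 7 and 8 in WT. The KI_Chd7del libraries all fell within the KI range, with a fold of 11.3 and a ratio of 0.923.

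The remaining pair carry Gm and Rik symbols and are described because they are members. Gm4759 (ENSMUSG00000053541, chromosome 7, 106417848 to 106424469) is annotated as an unprocessed pseudogene. Its values were 384, 390 and 670 in KI_Chd7del, 239, 678 and 440 in KI, and 53, 54 and 56 in WT. The KI_Chd7del libraries lay within the KI range, which was wide, at a fold of 8.19 and a ratio of 1.06. The 2 nearest protein-coding genes on its left are Gvin1, a very large interferon-inducible GTPase, and Gm4070, and they were singled out after their values were seen. Gvin1 averaged 154.3 ± 63.6 in KI_Chd7del, 463 ± 111 in KI and 68.7 ± 2.31 in WT (SD, n = 3 each), and it fell in KI_Chd7del against KI (log2 fold change -1.62, SE 0.27, limma adjusted p = 0.00201). Gm4070 fell likewise (-1.78, SE 0.28, limma adjusted p = 0.00151), with means of 138 ± 56.3 in KI_Chd7del, 464.3 ± 126 in KI and 41.7 ± 1.15 in WT (SD, n = 3 each). Its values were close to those of Gvin1 in the KI_Chd7del and KI libraries. Whether the 2 genes share reads was not examined, so their falls may not be separate. The 3 KI_Chd7del libraries of Gvin1 and of Gm4070 lay below the 3 KI libraries, while those of Gm4759, chosen by its ratio, did not. Whether the difference between Gm4759 and these neighbours exceeds the spread was not tested. Of the 50-base stretches of Gm4759, 2.51% occurred in another gene, mostly Gm8979, so reads of this family may be divided among copies. C030034L19Rik (ENSMUSG00000097365, chromosome 3, 9403064 to 9437233) is a lincRNA. It had 165, 119 and 125 in KI_Chd7del, 108, 220 and 200 in KI, and 17, 11 and 12 in WT. The ranges overlapped, with a fold of 12.3 and a ratio of 0.775. It shares 43.6% of its exon bases with the opposite strand of Zfp704, which averaged 2267 ± 64.7 in KI_Chd7del, 1756 ± 85.9 in KI and 1108 ± 72.5 in WT (SD, n = 3 each). Strand use in the counting is not given in the sources used here, so reads of overlapping genes cannot be told apart.

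**Figure D2:**
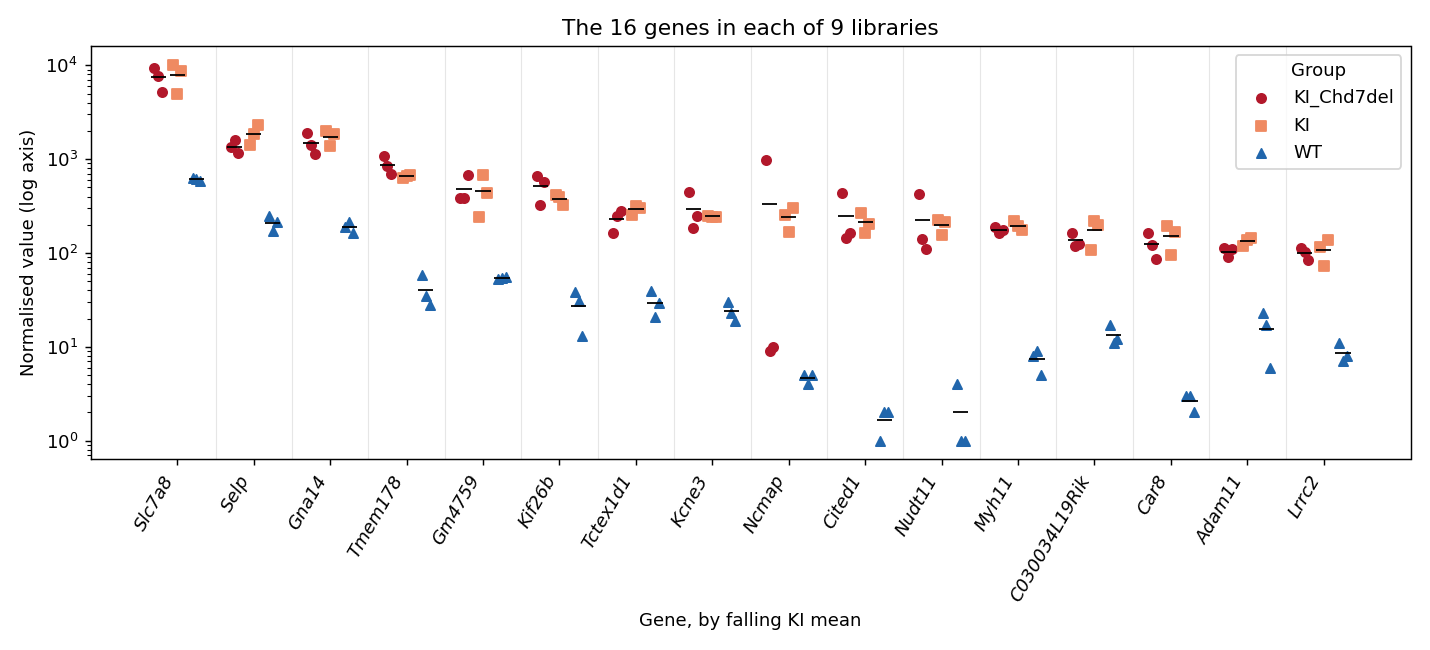
Normalised values (vertical log axis) of the 16 genes in each library, with KI_Chd7del, KI and WT side by side and a bar at each group mean. KI_Chd7del and KI points lie above the WT points for each gene, and for Ncmap the KI_Chd7del points split into 973 in library 1 and 9 and 10 in the others.

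The means hid differences between the KI_Chd7del libraries. Taken library by library against the KI mean, 3 of the 16 genes, Myh11, Lrrc2 and Gm4759, kept a ratio between 0.7 and 1.5 in each of the 3 KI_Chd7del libraries. Ncmap did so in none. KI_Chd7del library 1 was the highest of its group for 13 of the 16 genes, against 54.5% of the 325 genes with a ratio below 0.7 and 42.3% of all 11388 genes with a KI mean of at least 100. The exceptions were Selp, Gm4759 and Tctex1d1. The ratio that chose the 16 was computed from these same values, and a high library 1 raises it, so nothing is read from the difference between these shares. Library 1 was at least 2-fold above the mean of libraries 2 and 3 in 4 of the 16 and in 41 of the 325. The share over all genes was not counted, and the same choice affects these counts, so nothing is read from them. Without KI_Chd7del library 1, C030034L19Rik, Car8, Ncmap and Nudt11 no longer met the rule and 12 of the 16 did. Without KI library 3, Adam11, Lrrc2, Ncmap and Selp no longer met it and 12 did. Without KI_Chd7del library 2, Kif26b, Ncmap and Selp did not and 13 did. Without KI library 1, C030034L19Rik and Selp did not and 14 did. Without KI library 2, Car8 and Gm4759 no longer met it and 14 did, and without KI_Chd7del library 3, Ncmap did not and 15 did. In each of the 9 sets that leave out 1 library, 7 genes stayed: Cited1, Gna14, Kcne3, Myh11, Slc7a8, Tctex1d1 and Tmem178.

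**Figure D3:**
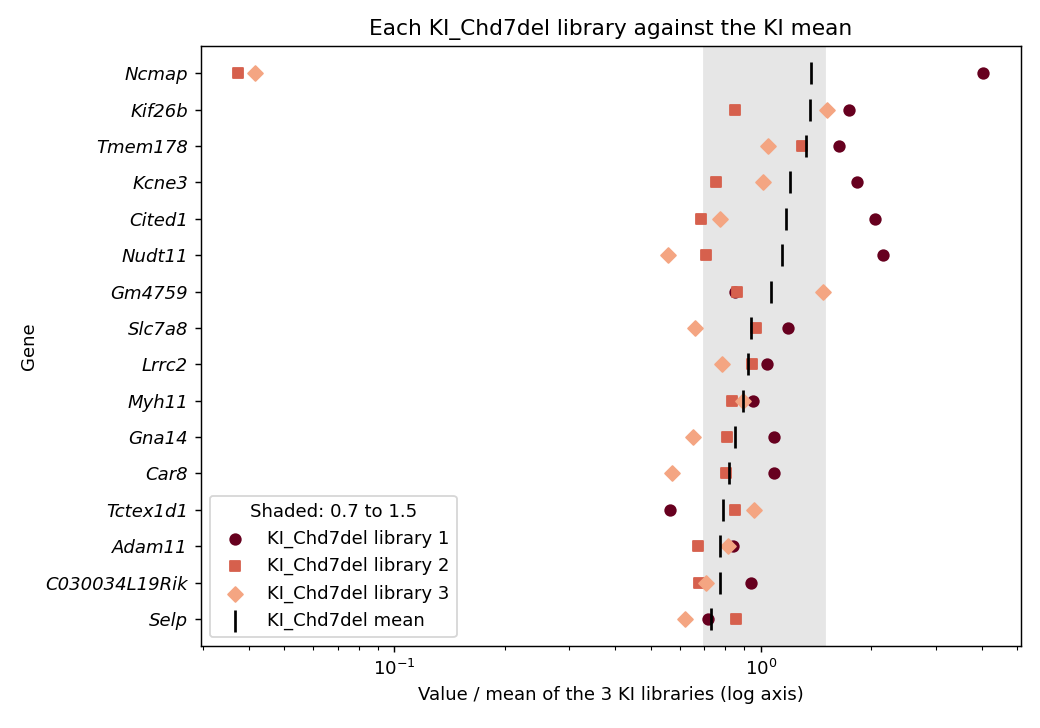
Value of each KI_Chd7del library divided by the mean of the 3 KI libraries (horizontal log axis, no unit) for the 16 genes, with a black bar at the ratio of the means and shading from 0.7 to 1.5. All 3 points lie within the shading for Gm4759, Lrrc2 and Myh11, and library 1 lies to the right of it for Ncmap, Kif26b, Tmem178, Kcne3, Cited1 and Nudt11.

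The median variation between libraries of a group was larger over the 16 than over all genes, although not every member exceeded the all-gene median. The median coefficient of variation of the 16 was 26.9% in KI_Chd7del and 21.9% in KI. Over all genes with a KI mean of at least 100 it was 7.23% in KI_Chd7del and 6.45% in KI. For genes with a ratio below 0.7 it was 29.5% in KI_Chd7del and 23.3% in KI. The least variable members were Myh11 in KI_Chd7del (6.55%) and Kcne3 in KI (0.941%), and the most variable were Ncmap in KI_Chd7del (168.2%) and Gm4759 in KI (48.6%). KI_Chd7del and KI libraries overlapped for 14 of the 16 genes. Of all genes tested, 52% did not overlap in that contrast, which the choice of the ratio keeps small among members, so nothing is read from the difference.

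Relatives of the members were taken by family name or as known partners, such as phospholipase C beta, the inositol trisphosphate receptors, CBP and p300, and Selplg, and not for how they moved, after the members were known. Of 98 such genes 61 were tested. In KI_Chd7del against KI, 14 were higher and 17 lower (50.8%, against 40.4% of all genes tested), and in KI against WT 31 were higher and 16 lower (77.0%, against 58.9%, of which 31.8% higher and 27.2% lower), all by limma at an adjusted p below 0.05. In KI_Chd7del against WT, 23 were higher and 15 lower (62.3%, against 48.4% of all genes). Among amino acid carriers, Slc7a2, a carrier of cationic amino acids, averaged 67.7 ± 19.9 in KI_Chd7del, 892.7 ± 469 in KI and 54.3 ± 8.02 in WT (SD, n = 3 each). It fell in KI_Chd7del against KI by 3.57 on the log2 scale (SE 0.43, limma adjusted p = 0.000374). Slc7a6, which carries cationic and neutral amino acids, fell by less (-0.74, SE 0.17, limma adjusted p = 0.00837). Of the 8 tested relatives of Slc7a8, 2 were higher and 3 lower in KI_Chd7del against KI. The higher ones were Slc7a11 (0.97, SE 0.34, limma adjusted p = 0.0463) and Slc7a4 (0.45, SE 0.14, limma adjusted p = 0.0285). Slc3a2, the heavy chain with which LAT2 and several relatives pair, rose in KI against WT (0.83, SE 0.14, limma adjusted p = 0.000765) and differed by -0.20 (SE 0.14, limma adjusted p = 0.279) in KI_Chd7del against KI, where it fell without KI library 2 (-0.36, limma adjusted p = 0.0278).

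Relatives of the signalling members included enzymes, receptors and a G protein. Plcb1, a phospholipase C beta downstream of Gq proteins, averaged 381.3 ± 32.5 in KI_Chd7del, 1078 ± 41 in KI and 172.3 ± 4.73 in WT (SD, n = 3 each). It fell in KI_Chd7del against KI (-1.50, SE 0.09, limma adjusted p = 1.91e-05). Of the 7 tested relatives of Gna14, 3 were higher and 2 lower in KI_Chd7del against KI. The higher ones were Plcb4 (0.36, SE 0.07, limma adjusted p = 0.00415), Gna15 (0.51, SE 0.09, limma adjusted p = 0.00252) and Plcb2 (0.52, SE 0.12, limma adjusted p = 0.00907). Gnaq, the ubiquitous alpha subunit 48.3 kb from Gna14, fell in KI against WT (-0.41, SE 0.07, limma adjusted p = 0.000825). Car7, an active carbonic anhydrase, fell in KI_Chd7del against KI (-1.51, SE 0.32, limma adjusted p = 0.00575), with means of 244.3 ± 105 in KI_Chd7del, 653.3 ± 126 in KI and 32.7 ± 2.52 in WT (SD, n = 3 each). Car13, another active form, had means of 914.3 ± 131 in KI_Chd7del, 841.7 ± 129 in KI and 244 ± 26.2 in WT (SD, n = 3 each). It rose in KI against WT (1.78, SE 0.14, limma adjusted p = 7.61e-06) and differed by 0.12 (SE 0.14, limma adjusted p = 0.518) in KI_Chd7del against KI. The 3 inositol trisphosphate receptors, of which Itpr1 encodes the partner of CAR8, rose in KI against WT. Itpr1 rose by 2.41 (SE 0.21, limma adjusted p = 1.41e-05), with means of 5513 ± 518 in KI_Chd7del, 8985 ± 1893 in KI and 1703 ± 454 in WT (SD, n = 3 each). It fell in KI_Chd7del against KI (-0.69, SE 0.21, limma adjusted p = 0.0303), a call that was lost without KI_Chd7del library 1 or 3 or KI library 2 or 3 (limma adjusted p from 0.0634 to 0.0999). Itpr2 rose by 1.47 (SE 0.17, limma adjusted p = 6.48e-05) and fell in KI_Chd7del against KI (-1.23, SE 0.17, limma adjusted p = 0.000687). Itpr3 rose by 2.24 (SE 0.19, limma adjusted p = 1.11e-05) and differed by -0.12 (SE 0.19, limma adjusted p = 0.628) in KI_Chd7del against KI.

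Among other myosin heavy chains, Myh9 and Myh10, non-muscle forms, fell in KI against WT (-0.999, SE 0.14, limma adjusted p = 0.000197, and -1.02, SE 0.12, limma adjusted p = 6.35e-05). Myh7b, a slow-type muscle relative, rose in KI against WT (3.69, SE 0.47, limma adjusted p = 0.000141) and fell in KI_Chd7del against KI (-2.11, SE 0.47, limma adjusted p = 0.00767). It averaged 15 ± 9 in KI_Chd7del, 60 ± 2.65 in KI and 4 ± 2 in WT (SD, n = 3 each). Differences between Myh11 and these relatives were not tested. Sequence shared with Myh9 made up 0.340% of the 50-base stretches of Myh11. Kcnq3, a potassium channel of the family that KCNE subunits regulate, rose in KI against WT (2.90, SE 0.29, limma adjusted p = 2.96e-05), and Crebbp and Ep300, the CITED1 partners CBP and p300, rose there by 0.60 (SE 0.08, limma adjusted p = 0.000234) and 0.54 (SE 0.07, limma adjusted p = 0.000134). Both coactivators fell in KI_Chd7del against KI, Crebbp by 0.43 (SE 0.08, limma adjusted p = 0.00396) and Ep300 by 0.31 (SE 0.07, limma adjusted p = 0.00766). KI_Chd7del against KI and KI against WT share the KI libraries.

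**Figure D4:**
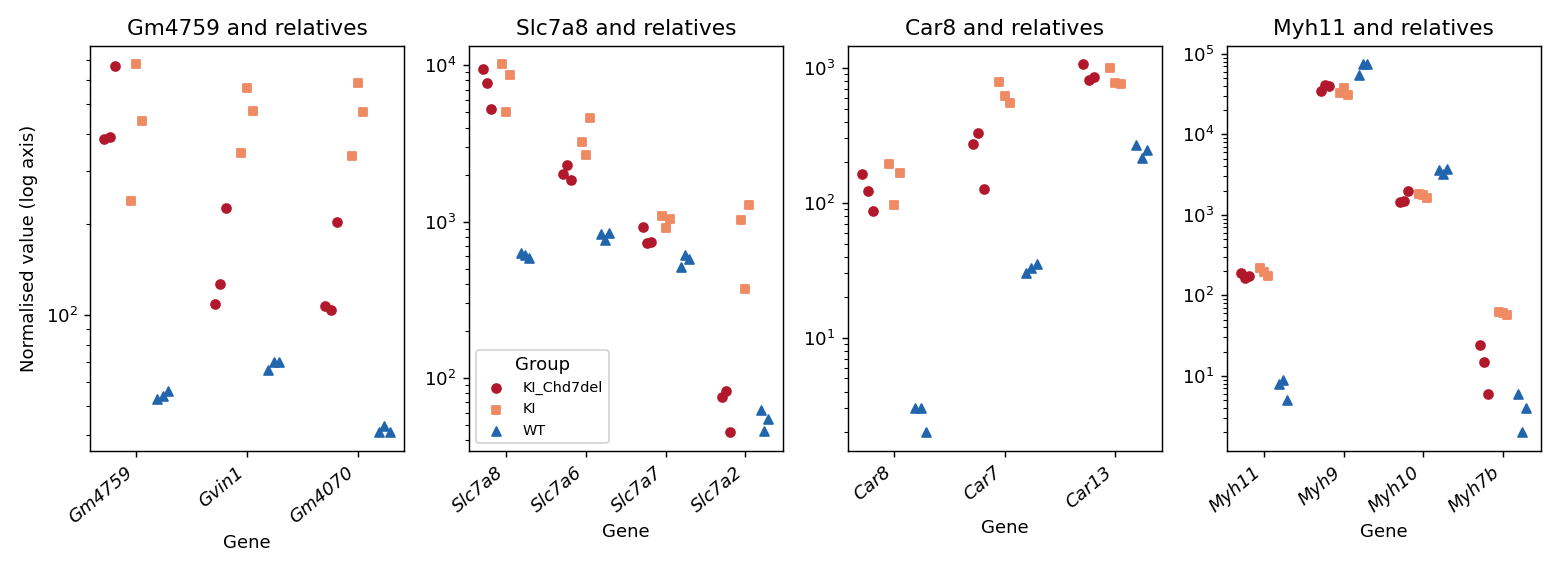
Normalised values (vertical log axis, a separate scale in each panel) of 4 of the genes, each the leftmost in its panel, and of relatives or neighbours, in KI_Chd7del, KI and WT libraries from left to right. Gvin1, Gm4070, Slc7a2 and Car7 have lower KI_Chd7del than KI points, while the points of Gm4759, Slc7a8, Car8 and Myh11 overlap between these groups. The choice of these 4 genes by their ratio favours the overlap, so nothing is read from the contrast. The relatives and neighbours shown were singled out after their values were seen. Slc7a11 and Slc7a4, which were higher in KI_Chd7del than in KI, are not shown.

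Neighbouring genes were counted in the same way. The 2 nearest protein-coding genes on each side of the 16 gave 64 genes, of which 50 were tested. In KI_Chd7del against KI, 8 were higher and 12 lower (40%, against 40.4% of all genes), and in KI against WT 22 were higher and 17 lower (78%, against 58.9%). In KI_Chd7del against WT, 20 were higher and 14 lower (68%, against 48.4%). Cebpe, a transcription factor of granulocyte maturation 10.035 kb from Slc7a8, averaged 3900 ± 152 in KI_Chd7del, 1221 ± 651 in KI and 11766 ± 848 in WT (SD, n = 3 each). It fell in KI against WT (-3.41, SE 0.32, limma adjusted p = 2.05e-05) and rose in KI_Chd7del against KI (1.82, SE 0.32, limma adjusted p = 0.00246). F5, coagulation factor V, 1.81 kb from Selp, fell in KI against WT (-1.39, SE 0.24, limma adjusted p = 0.00101). Vps13a, a lipid transfer protein gene 4.55 kb from Gna14, rose in KI against WT (limma adjusted p = 4.57e-07, means of 4301 ± 199 in KI and 1810 ± 60.7 in WT, SD, n = 3 each) and fell in KI_Chd7del against KI (-0.53, SE 0.06, limma adjusted p = 0.000217). Slc8a1, a sodium and calcium exchanger 371.3 kb from Tmem178, did the same (3.18, SE 0.17, limma adjusted p = 1.04e-06, and -1.34, SE 0.17, limma adjusted p = 0.000556). Sgip1, an endocytosis gene 4.98 kb from Tctex1d1, rose in KI against WT (1.30, SE 0.16, limma adjusted p = 9.82e-05) and differed by 0.30 (SE 0.16, limma adjusted p = 0.154) in KI_Chd7del against KI, where it rose without KI_Chd7del library 1 (0.48, limma adjusted p = 0.0181). Chd7 itself is the second gene on one side of Car8, 451.4 kb away on chromosome 4.

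Some pathway lists held a member, and their other genes were counted beside the shares of all genes tested, which were 17.5% higher and 22.9% lower in KI_Chd7del against KI and 31.8% higher and 27.2% lower in KI against WT. Among 25 other integrin and adhesion genes, listed with Selp, 3 were higher and 9 lower in KI_Chd7del against KI (48%, median log2 -0.29), and 13 were higher and 4 lower in KI against WT (68%, median 0.50). Podxl, a sialomucin of progenitors, rose in KI against WT (8.78, SE 0.43, limma adjusted p = 5.95e-07) and fell in KI_Chd7del against KI (-1.90, SE 0.43, limma adjusted p = 0.00762). Itgb7, an integrin beta chain, did the same (3.25, SE 0.09, limma adjusted p = 6.41e-08, and -1.22, SE 0.09, limma adjusted p = 3.94e-05). Of the 20 other ion channel genes, listed with Kcne3, 1 was higher and 10 lower in KI_Chd7del against KI (55%, median -0.37), and 12 were higher and 3 lower in KI against WT (75%, median 1.08). The 11 other genes of the core binding factor, ETO and TLE families, listed with Myh11, gave 1 higher and 4 lower in KI_Chd7del against KI (45.5%, median -0.09), and 7 higher and 2 lower in KI against WT (81.8%, median 0.34). Runx1t1, an ETO corepressor, rose in KI against WT (8.21, SE 0.74, limma adjusted p = 1.70e-05) and fell in KI_Chd7del against KI (-4.55, SE 0.74, limma adjusted p = 0.00175). Tle3, with the smallest adjusted p of the 11 in KI against WT, fell there (-1.29, SE 0.06, limma adjusted p = 5.16e-07). It differed by 0.10 (SE 0.06, limma adjusted p = 0.199) in KI_Chd7del against KI. A list of genes tied to CBFB-MYH11 by earlier studies had 19 others tested, of which 8 were higher and 8 lower in KI_Chd7del against KI (84.2%, median 0.25), and 11 were higher and 1 lower in KI against WT (63.2%, median 0.94). Over all genes tested the medians were -0.01 in KI_Chd7del against KI and 0.02 in KI against WT. The 24 mast cell and basophil genes tested, whose list held 0 of the 16, had 4 higher and 16 lower in KI_Chd7del against KI (83.3%, median -1.04), and 19 higher and 4 lower in KI against WT (95.8%, median 3.62). Other lists without a member did not all move this way. The 22 haematopoietic stem cell genes had 12 higher and 5 lower in KI_Chd7del against KI (77.3%, median 0.75). In KI against WT they had 10 higher and 5 lower (68.2%, median 0.56).

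Some small counts rested on single libraries or on scaling. The 3 higher adhesion genes in KI_Chd7del against KI became 0 without KI library 1, without KI library 3 or without KI_Chd7del library 2, and 6 with upper-quartile scaling. The 1 higher ion channel gene was lost when library 1 or 2 of KI, 1 or 3 of KI_Chd7del, or 2 or 3 of WT was left out, and the 3 lower ones in KI against WT became 5 without KI library 2. The 8 higher genes tied to CBFB-MYH11 became 5 without KI library 3 or without KI_Chd7del library 3. The 1 higher gene of the core binding factor families became 2 without KI_Chd7del library 1 and with upper-quartile scaling.

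Genes outside the 16 whose profile over the 9 libraries was most like their mean profile included Mier2, Mpped2, Rab2b and Pkp1, with Pearson's r of log2(value + 1) from 0.995 to 0.997. The likeness is a description over 9 libraries in 3 groups. Mier2, a corepressor, had 684, 584 and 610 in KI_Chd7del, 624, 679 and 681 in KI, and 268, 257 and 251 in WT. Rab2b, a small GTPase of membrane traffic, had 398, 344 and 345 in KI_Chd7del, 372, 388 and 379 in KI, and 191, 203 and 181 in WT. Both were higher in the 6 fusion libraries than in WT, by less than the 8-fold that the choice of the 16 required. Mpped2, a phosphodiesterase relative, and Pkp1, a plakophilin of desmosomes, passed that fold, at 85.7 and 238.8, and had KI_Chd7del to KI ratios below 0.7, at 0.624 and 0.518. Among the members themselves, r with the mean profile of the others was lowest in Ncmap (0.748) and Gm4759 (0.926) and highest in Nudt11 (0.994).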

How the data were processed

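The deposited table holds whole numbers for 43629 Ensembl genes of GRCm38 in 9 libraries. The submitters' processing notes list DESeq2, RSEM, STAR 2.4 and CASAVA 1.8.2 with no roles, and the annotation release is not given in the sources used here. The pattern of the deposited values was taken as read numbers divided by a size factor per library and rounded, which no label states, so the unit is a score, called a normalised value, and no count test was run. The members and lists were chosen with earlier results of these data known. Symbols and positions came from GENCODE M21 (42462 genes with a symbol). Genes reaching 10 in 3 or more libraries (15997) were tested with limma 3.58.1 in R 4.3.3, on log2(value + 1) with the variance modelled on the mean level, over the 9 libraries in 3 groups, 2-sided, with Benjamini-Hochberg adjustment over all 15997 at 0.05. This scale understates the change of low genes. The fit was also run on simulated data in which 200 genes changed. That is far fewer than were called here, so the simulation does not test the calls in these data. Python 3.11.15, pandas 2.3.3, numpy 2.4.6 and matplotlib 3.10.9 did the rest. Alternatives were other scalings, thresholds, filters, pseudocounts of 4 and 16, limma-voom, fits of 2 groups, a replicate block and each library left out. Genes named are the members, those near each bound, up to 4 leading genes per list, those most alike (1 of the 5 is not reported here), and relatives and neighbours singled out after their values were seen.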

Additional observations from a re-analysis of the deposited data

How the results depend on the processing

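The number of genes meeting the rule was 16. It was 17 with upper-quartile scaling (14 shared), 17 with relative log expression, 22 with scaling to the column total and 13 with group medians. It was 10 with a KI mean of at least 200, 22 with at least 50, 65 with a fold of at least 4, 5 with a fold of at least 16, 9 with a narrower range of the ratio starting at 0.8, and 48 with a ratio between 0.5 and 2. Leaving out each library in turn gave 13 to 22. Chosen after seeing the data, KI_Chd7del library 1 alone gave 25, library 2 alone 16, library 3 alone 13, and the ratio required in each of the 3 libraries gave 3. Higher genes made up 43.4% of calls in KI_Chd7del against KI and 53.9% in KI against WT, and scaling moved these shares. In KI_Chd7del against KI it was 56.4% with upper-quartile scaling and 45.6% with scaling to the column total. In KI against WT it was 44.9% with upper-quartile scaling and 74.3% with scaling to the column total, where the all-gene median was 0.25 in place of 0.02. In KI_Chd7del against WT it was 49.7%, with 46.5% under upper-quartile scaling and 78.9% under scaling to the column total. Cbfb, at -0.07 in KI_Chd7del against WT, turned to 0.18 (limma adjusted p = 0.0485) with scaling to the column total. The cause was not tested. Deviations of same-numbered libraries had correlations of -0.153 to 0.109, against -0.167 to 0.208 for libraries with different numbers. This does not settle whether the numbers pair the libraries, and the main fit used no pairing. With a replicate block, 5952 genes were called in KI_Chd7del against KI, 9121 in KI against WT and 7411 in KI_Chd7del against WT, each within 1.5 times of the count without it. Rcan3 fell in KI_Chd7del against KI without KI_Chd7del library 1 (-1.01, limma adjusted p = 0.000659), and was at -0.62 (limma adjusted p = 0.101) with all libraries. Low values near 0 in WT limit the precision of the folds of Cited1, Nudt11, Car8 and Ncmap.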
